A study of Oryza sativa with 20 samples.

Results

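The genes described here had a high RNA level in roots of the rice cultivar Bala and a low level in roots of 4 other cultivars. They were chosen from these data by their measured values. A gene was taken when its mean in Bala was at least 5 CPM, and when that mean was also at least 4 times the highest mean of the other cultivars. CPM are read counts scaled to a common library size, here with the library totals adjusted by the TMM method so that most genes are level between libraries. The rule took 61 of the 21237 named genes, or 0.287%. Because the Bala levels chose the genes, those levels and their ratios to the other cultivars are a description and were not tested.

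RNA sequencing was done on root tissue of 5 cultivars, which were Bala, Azucena, Sarali, Niyan Wee and Moddai Karuppan, and each gave 4 of the 20 libraries. The groups differ in genotype alone as far as the labels say, and no treatment, plant age or growth condition is given there that would separate them. Bala is an upland indica rice and Azucena an upland tropical japonica rice, and the pair are parents of a widely used mapping population. Moddai Karuppan, Niyan Wee and Sarali are taken as the Sri Lankan indica cultivars named in the title of the series. Nothing in the labels says that the libraries of a cultivar came from separate plants, so the p-values below measure the spread between these libraries, which may be technical. Replicates 1 and 2 of each cultivar are marked P1 in the file header and replicates 3 and 4 are marked P2, under the heading pool.

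Cultivars of rice differ in which genes they carry, in the number of copies and in how strongly the genes are transcribed, and RNA counts set against a single annotation do not tell these apart. Few of the chosen genes carry a gene name, and the roles of the others were not looked up. The named ones belong to a few families: germin-like proteins are secreted, cell wall-bound proteins tied to defence in rice, chitinases cut chitin of fungal walls, HKT proteins move sodium and potassium across membranes, and YSL proteins carry metals bound to plant chelators. In bulk roots, fewer cells of a type and less RNA per cell cannot be told apart.

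Library totals lay between 23444525 and 31996667 counts, but much of this was ribosomal RNA. The 23 ribosomal RNA genes took 70.6%, 62.8%, 75.0% and 84.6% of the counts in Bala replicates 1 to 4, against cultivar means of 52.9% in Sarali, 49.2% in Azucena, 42.0% in Moddai Karuppan and 31.0% in Niyan Wee. Bala replicate 4 therefore held 3813600 counts outside ribosomal RNA, the fewest of the 20 libraries, and 3 counts in it equal 0.385 CPM. One Azucena library also stood apart: the median correlation of Azucena replicate 3 with the other Azucena libraries was 0.825, while those of the other Azucena libraries lay between 0.928 and 0.948. For several counts and ratios below that rest on Bala replicates 3 and 4 or on Azucena replicate 3, values without them are given too. All 9 listed root markers found in the table were detected in Bala, except that HKT2;1 was at 0 in 3 of its libraries. Their summed level was 1048, 378, 504 and 1236 CPM in Bala replicates 1 to 4 and 125 to 789 CPM in the other libraries. Most of this sum came from the silicon transporters Lsi1 and Lsi2, with Bala means of 404 and 331 CPM. The sum therefore does not describe the other markers. The 2 green tissue genes found summed to between 3.14 and 9.26 CPM in every library.

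The same rule applied to the other cultivars took 210 genes for Azucena, 11 for Sarali, 10 for Moddai Karuppan and 6 for Niyan Wee. Among the 61 genes of Bala, 48 are annotated as protein coding, 4 as ribosomal RNA, 3 as long non-coding RNA, 2 as pseudogenes, 1 as a small nucleolar RNA and 1 as miscellaneous RNA, and 2 had no match in the reference table. Protein coding genes made up 78.7% of them against 90.8% of all named genes, and 8.20% carry a gene name against 11.1%. Bala means ran from 5.30 to 586 CPM with a median of 13.2 CPM, and 22 of the 61 were under 10 CPM. The median ratio to the highest other mean was 6.57.

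**Figure D1:**
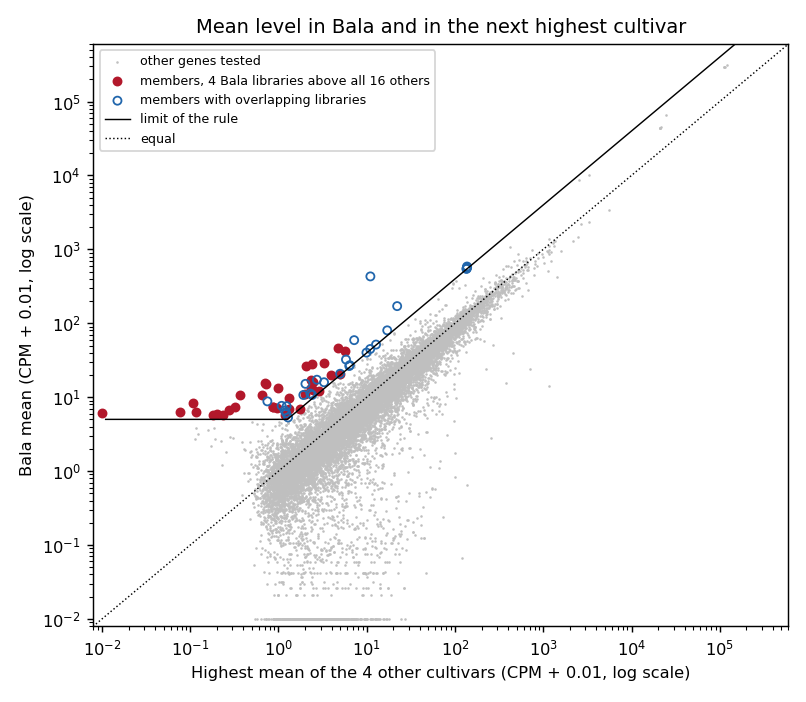
Each point is a gene, placed by the highest of the 4 other cultivar means (x axis) and the Bala mean (y axis), both in CPM plus 0.01 on log scales. The solid line is the limit of the rule, and the filled points are the 34 genes whose 4 Bala libraries all lay above all 16 other libraries.

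The 61 genes fell into distinct patterns. In 34 of them the lowest Bala library lay above the highest of the 16 other libraries, a separation that 0.961% of all named genes showed. The rule used these values, so nothing is read from that share. Their median ratio was 9.41 and the median coefficient of variation among the Bala libraries was 31.2%. Another 23 genes, ribosomal RNA aside, overlapped with the other cultivars, with a median ratio of 5.01 and a median coefficient of variation of 99.8%. For comparison, the 12889 genes with a Bala mean of at least 5 CPM had a median coefficient of variation of 18.9%. The remaining 4 are ribosomal RNA genes. The split was made by the lowest Bala library, so the differences in ratio and spread between the groups partly follow from it. Nothing is read from them.

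**Figure D2:**
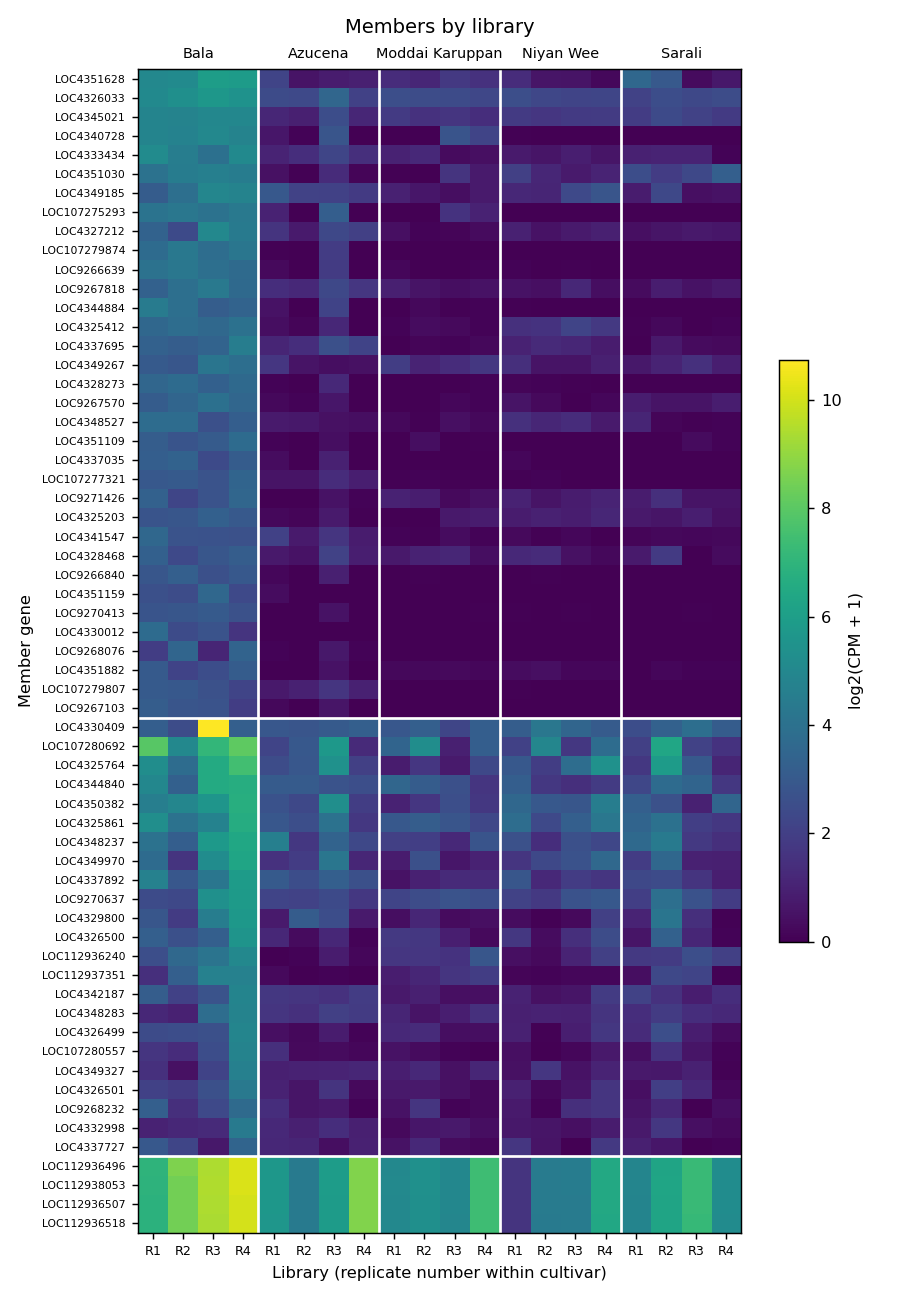
Rows are the 61 genes and columns the 20 libraries (R1 to R4 are the replicates of each cultivar), coloured by log2(CPM + 1). The upper block holds the 34 genes without overlap, the middle block the 23 overlapping genes, where Bala replicate 4 is brightest in 21, and the lowest block the 4 ribosomal RNA genes.

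Which Bala library was highest differed between the patterns. Of the 23 overlapping genes, 21 were highest in Bala replicate 4 and 2 in replicate 3. The 34 separated genes were spread over the libraries, with 8, 6, 12 and 8 highest in replicates 1 to 4. The separated genes summed to 434, 429, 500 and 519 CPM in Bala replicates 1 to 4, and to between 14.5 and 34.3 CPM in the other libraries except Azucena replicate 3, at 79.7 CPM. The overlapping genes without LOC4330409, which is described below, summed to 494, 167, 660 and 1382 CPM in Bala. Single libraries were also high for them elsewhere: 273 CPM in Sarali replicate 2 against 63.65, 53.37 and 31.99 CPM in the other Sarali libraries, 213 CPM in Azucena replicate 3 against 79.3, 59.2 and 37.4 CPM, and 149 CPM in Niyan Wee replicate 4 against 60.1 to 71.0 CPM. The root silicon transporter Lsi1 was likewise highest in replicate 4 and lowest in replicate 2 of Bala, at 523, 212, 262 and 617 CPM in Bala replicates 1 to 4 and at 385 CPM in Azucena replicate 3. Its partner Lsi2 stood at 442, 124, 212 and 546 CPM in Bala and at 307 CPM in Azucena replicate 3. In both, Bala replicate 1 lay above replicate 3, unlike in the sum of the overlapping genes. Of the other listed root markers, an AMT1-2 entry (LOC4330008) had the same highest and lowest Bala library, at 6.55, 1.56, 4.68 and 11.9 CPM. The rest did not, among them IRT1 at 3.37, 1.08, 0.555 and 1.54 CPM and SCR1 at 3.76, 2.60, 5.15 and 4.62 CPM. The part of root composition in the overlapping genes was not tested.

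**Figure D3:**
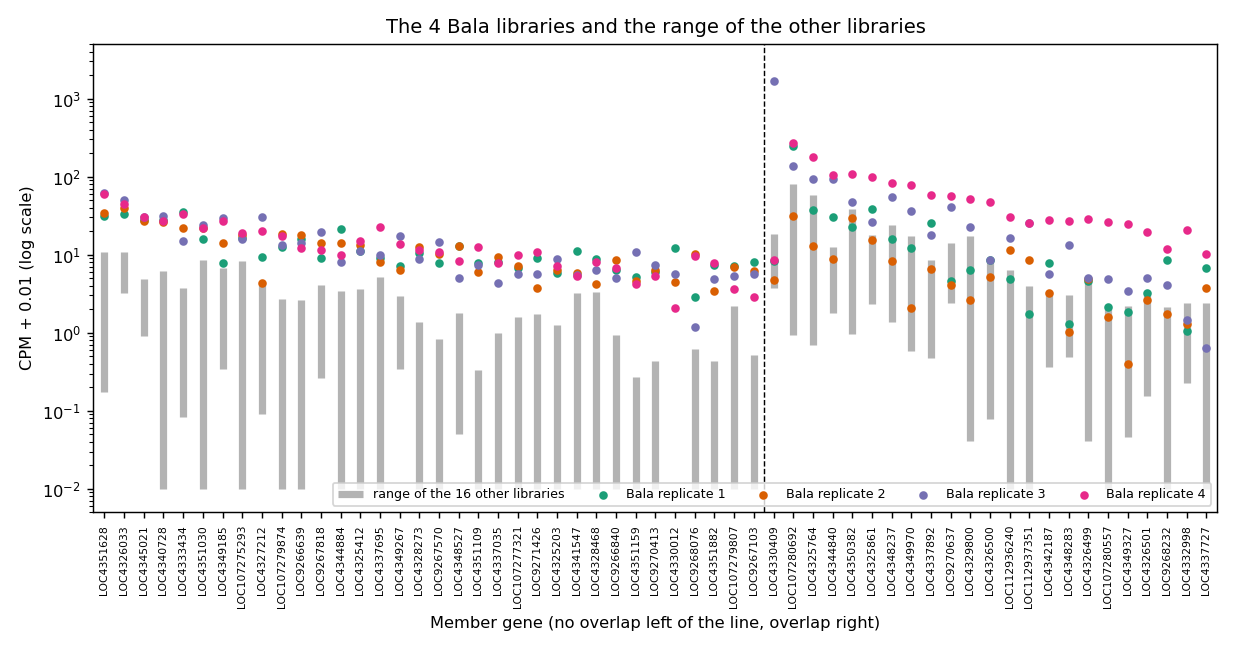
Coloured points are the 4 Bala libraries and grey bars the range of the 16 other libraries, in CPM plus 0.01 on a log scale, for the 57 genes that are not ribosomal RNA. Left of the dashed line the points lie above the bars, and right of it Bala replicate 4 is usually highest while other Bala libraries fall inside the bars.

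When Bala replicates 3 and 4 were left out, 38 genes met the rule. They included 29 of the 34 separated genes, 3 of the 23 overlapping genes and none of the ribosomal RNA genes. Leaving out Bala replicate 4 alone gave 40 genes, with 33 separated and 5 overlapping genes among them. The split into separated and overlapping genes used the same Bala libraries, so which group stays is partly fixed by it. Nothing is read from that difference. Without Bala replicate 2, the library with the lowest sum of overlapping genes, 94 genes met the rule. Without Azucena replicate 3 the rule took 72 genes, among them all 34 separated and all 23 overlapping genes.

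Of the members with a gene name, GER1 (LOC4344840, LOC_Os08g08980), a germin-like protein, had the highest level. It was at 30.5, 8.67, 93.6 and 104 CPM in Bala replicates 1 to 4, and at 1.75, 5.42 and 12.6 CPM as the lowest, median and highest of the other libraries. Bala replicates 1, 3 and 4 were above all others and replicate 2 lay inside their range. The mean was 59.1 ± 46.6 CPM (SD, n = 4) in Bala and 7.19 ± 4.88 CPM (SD, n = 4) in Sarali, the next highest. All 61 genes passed the comparison of Bala with the mean of the other cultivars in which 8.84% of the genes tested were higher and 6.67% lower in Bala, and since the rule used that contrast nothing is read from it for them. The other germin-like genes listed by symbol were no members. Of the 5 measured, 2 were higher in Bala and none lower, and their median log2 difference was 1.39 against -0.01 over all genes.

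GER2 (LOC4344839), which neighbours GER1 in name and MSU identifier, was at 39.70 ± 23.01 CPM in Bala (SD, n = 4) and between 8.97 and 16.8 CPM as the mean of the others, a log2 difference of 1.69 (edgeR adjusted p = 0.00612). GER4 (LOC4327911) was at 144 ± 50.6 CPM in Bala (SD, n = 4) and 115 ± 36.6 CPM in Azucena (SD, n = 4), but between 43.0 and 45.1 CPM in the other means, with a log2 difference of 1.36 from the mean of all others (edgeR adjusted p = 0.00589). GER4 was thus high in Azucena too. GER3 (LOC4344838) was highest in Azucena, at 14.5 ± 8.11 CPM against 1.62 ± 0.881 CPM in Bala (SD, n = 4 each), and at most 0.738 CPM in the Sri Lankan means. Its log2 difference of 1.49 is from the mean of the others on the log scale and did not pass (edgeR adjusted p = 0.0698). GER6 (LOC4344843), at 3.82 ± 1.42 CPM in Bala (SD, n = 4) and 1.13 to 2.25 CPM in the other means, had a log2 difference of 1.39 and did not pass either (edgeR adjusted p = 0.133).

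The chitinase gene Cht2 (LOC4349267, LOC_Os10g39680) was at 7.20, 6.33, 17.3 and 13.9 CPM in Bala replicates 1 to 4. The other libraries ranged from 0.331 to 2.91 CPM with a median of 1.03 CPM, so the groups did not overlap. Its mean was 11.2 ± 5.28 CPM in Bala and 1.98 ± 0.783 CPM in Moddai Karuppan (SD, n = 4 each), the next highest. Not whole were 12 of its 20 deposited values, so reads shared with a similar gene cannot be told apart from its own. It was the one member among 6 chitinase genes listed by symbol, a list added after the members were known. Cht12 (LOC4333121) was lower in Bala, at 0.0830 ± 0.0960 CPM against 2.70 ± 2.46 CPM in Azucena (SD, n = 4 each), with a log2 difference of -3.39 (edgeR adjusted p = 0.0217). The other 4 did not pass.

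HKT1;3 (LOC4328468), a sodium transporter of the HKT family, was at 8.75, 4.16, 6.42 and 8.08 CPM in Bala replicates 1 to 4. The other libraries had a lowest value of 0, a median of 0.689 and a highest value of 3.31 CPM, the last in Azucena replicate 3. All Bala libraries lay above them. The Bala mean was 6.85 ± 2.04 CPM and the Azucena mean 1.31 ± 1.34 CPM (SD, n = 4 each). Without Azucena replicate 3 the Azucena mean was 0.648 CPM. Its relative HKT2;1 (LOC4341971), which takes up sodium into rice roots, ran the other way: it was at 0.259, 0, 0 and 0 CPM in Bala, and its means were 3.00 CPM in Niyan Wee, 2.81 CPM in Sarali, 2.68 CPM in Moddai Karuppan and 1.02 CPM in Azucena. The fitted log2 difference of HKT2;1 was -4.91 (edgeR adjusted p = 0.000999). It ran from -9.08 to -4.31 as single libraries were left out, passing each time. HKT1;5 (LOC4327757) did not pass, with a log2 difference of 0.84 (edgeR adjusted p = 0.465).

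YSL15 (LOC9268232, LOC_Os02g43410), which takes up iron bound to phytosiderophores in rice roots, was at 8.62, 1.73, 4.12 and 11.9 CPM in Bala replicates 1 to 4. The other libraries had a lowest value of 0, a median of 0.501 and a highest value of 2.14 CPM, so Bala replicate 2 overlapped with them and the other Bala libraries did not. The Bala mean was 6.60 ± 4.56 CPM and the Niyan Wee mean 1.16 ± 0.956 CPM (SD, n = 4 each). The other 10 measured YSL genes listed by symbol were no members. Of these only OsYSL14 (LOC9267947) passed, lower in Bala by a log2 difference of -0.93 (edgeR adjusted p = 0.0169). OsYSL14 stood at 17.9 ± 6.39 CPM in Bala and 42.9 ± 8.39 CPM in Moddai Karuppan (SD, n = 4 each).

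HKT1;3 and YSL15 were the members among 76 nutrient and metal transporters listed by symbol. Of the other 74, 10 were higher and 5 lower in Bala, beside 8.84% and 6.67% of all genes tested, with a median log2 difference of -0.08. Among the others, the ammonium transporter AMT1-2 (LOC4330008) was at 6.18 ± 4.35 CPM in Bala and 2.01 ± 1.46 CPM in Niyan Wee (SD, n = 4 each), with a log2 difference of 2.21 (edgeR adjusted p = 0.00205). HMA2 (LOC4341965), a zinc and cadmium pump, was at 79.1 ± 38.7 CPM in Bala and 49.6 ± 11.8 CPM in Azucena (SD, n = 4 each), with a log2 difference of 1.18 (edgeR adjusted p = 0.00505). Most of the list did not pass. Another 20 lists of families by symbol held no member. Only 5 of the 61 members carry a gene name, so the others could not enter a list whatever they encode. Of their 296 entries 10.8% were higher and 7.09% lower in Bala, beside the same shares over all genes. Expansins had 6 of 31 higher and 0 lower, MADS genes 5 of 15 higher and 4 lower, cell division genes 4 of 57 each way, and sugar transporters 0 of 14 higher and 2 lower. One more member has a name but was in no family list, OrysaZxb (LOC4333434, LOC_Os03g41438), at 35.7, 22.2, 14.7 and 33.4 CPM in Bala and at most 3.73 CPM elsewhere.

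The rest of the separated genes carry identifiers alone. The highest was LOC4351628 (LOC_Os12g07310), at 31.5, 34.3, 61.0 and 59.0 CPM in Bala replicates 1 to 4 and at 0.165, 1.07 and 10.8 CPM as the lowest, median and highest of the other libraries. LOC4326033 (LOC_Os01g03020) was at 33.1, 40.2, 50.6 and 44.0 CPM in Bala, against 3.25, 4.31 and 10.7 CPM. Unlike most of these genes, LOC4326033 was detected well in every library. LOC4345021 (LOC_Os08g13930) was the steadiest in Bala, at 27.8, 26.9, 30.4 and 30.7 CPM with a coefficient of variation of 6.52%, and the other libraries ranged from 0.899 to 4.88 CPM. Among the 34, the widest spread was that of LOC9268076 (LOC_Os11g47140), at 2.85, 10.2, 1.19 and 9.62 CPM, where the highest other library had 0.602 CPM.

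Several separated genes were near the detection limit outside Bala. Outside Bala, 10 of the 61 genes never reached 1 CPM in a library, and in the 12 Sri Lankan libraries together 3 had no count and 6 had at most 3 counts. LOC4330012 (LOC_Os02g40784) was at 12.3, 4.51, 5.71 and 2.05 CPM in Bala and had no count in any of the 16 other libraries. Against a floor of 3 counts over the 4 libraries of a group, its Bala mean of 6.15 ± 4.39 CPM (SD, n = 4) was at least 229-fold higher. LOC4351159 (LOC_Os11g46950) was at 5.19, 4.60, 10.9 and 4.23 CPM in Bala and had no count in a Sri Lankan library. Its highest value elsewhere was 0.264 CPM in Azucena replicate 1, and the ratio of means was 94.6.

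The next highest ratios among the separated genes belonged to LOC4351109 (LOC_Os11g45130, a pseudogene) and LOC9270413 (LOC_Os08g09790). LOC4351109 was at 7.84, 5.99, 7.37 and 12.6 CPM in Bala and at most 0.321 CPM elsewhere, a ratio of 86.8. LOC9270413 was at 5.96, 6.33, 7.29 and 5.26 CPM and at most 0.421 CPM elsewhere, a ratio of 59.0. That ratio rests on Azucena replicate 3, the only Azucena library with a count: without it the highest other mean was 0.0171 CPM in Niyan Wee, in place of 0.105 CPM in Azucena. The ratios of LOC9267103 (long non-coding), LOC9268076, LOC4328273, LOC4351882, LOC9266840 and LOC4337035 lay between 23.6 and 33.0. Except for LOC4351882, at 25.7 both ways, these ratios too were set by Azucena replicate 3, and without it they lay between 84.4 for LOC4337035 and 207 for LOC4328273. The ratio of LOC4351159 was then 70.9 and that of LOC4351109 89.4, so the order of the ratios changed. All Bala means of these 6 genes were at most 10.8 CPM, so the ratios rest on low counts in the other cultivars.

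Ribosomal RNA aside, the 5 highest means belonged to overlapping genes. LOC4330409 (LOC_Os02g46990) owed its place to a single library: it was at 8.30, 4.68, 1701 and 8.59 CPM in Bala replicates 1 to 4 and at 3.73, 7.87 and 18.2 CPM as the lowest, median and highest of the others. Bala replicates 1, 2 and 4 lay inside that range. LOC107280692 (long non-coding) was at 248, 31.0, 136 and 268 CPM in Bala, with 0.911, 5.13 and 79.9 CPM as the lowest, median and highest of the others. LOC4325764 was at 37.5, 13.0, 92.8 and 178 CPM in Bala, and also at 57.8 CPM in Sarali replicate 2, 42.7 CPM in Azucena replicate 3 and 42.1 CPM in Niyan Wee replicate 4. These single high libraries are the ones named above for the sum of the overlapping genes.

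The pseudogene LOC4350382 was at 22.9, 29.7, 46.9 and 107 CPM in Bala and at 38.6 CPM in Azucena replicate 3, where the other Azucena libraries had 2.87 to 5.50 CPM. LOC4325861 (LOC_Os01g57854) was at 38.8, 15.5, 26.2 and 98.8 CPM in Bala and at most 17.9 CPM elsewhere. LOC4348237 (LOC_Os10g11500) was at 15.8, 8.24, 54.0 and 82.4 CPM in Bala and reached 23.7 CPM in Azucena replicate 1. In these 3 genes the lowest Bala libraries fell among the other cultivars.

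The 4 ribosomal RNA members had nearly the same values. LOC112936496, the highest, was at 124, 407, 689 and 1121 CPM in Bala replicates 1 to 4 and at 2.04, 38.2 and 417 CPM as the lowest, median and highest of the others. LOC112938053, LOC112936507 and LOC112936518 had Bala means of 570.3, 551 and 544 CPM and, with LOC112936496, ratios between 4.03 and 4.28. Each is 156 bases long in the reference, and none of their deposited values was whole. Reads of near-identical copies cannot be told apart, so the 4 do not count as separate observations.

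Members near the limit of the rule were similar inside and outside it. Just inside were LOC4341547 at a ratio of 4.01, LOC112936518 at 4.03, LOC4348237 at 4.04, LOC4350382 at 4.05 and LOC112936507 at 4.06. Just outside were the ribosomal RNA gene LOC112936523 at 3.98, the non-coding LOC107281876 at 3.95, the ribosomal RNA gene LOC112936486 at 3.95, NSHB2 (LOC4332123), a non-symbiotic haemoglobin, at 3.86, and LOC4344913 at 3.79. NSHB2 had a Bala mean of 19.9 ± 20.5 CPM (SD, n = 4), a spread like that of the overlapping genes.

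The members' levels were also compared between the pools within Bala. The rule used the mean of the same libraries and took genes that were high in some of them, so the direction of these differences is partly fixed by the choice and nothing is read from it. In the comparison of replicates 3 and 4 with replicates 1 and 2, 2 of the 61 genes passed, both higher in pool P2, where 0.0518% of all genes tested passed in either direction, 0.0141% higher and 0.0377% lower. LOC4348283 (LOC_Os10g14920) was at 1.30, 0.998, 13.5 and 27.1 CPM in Bala replicates 1 to 4, and the other cultivars had 0.481 to 3.04 CPM. Pool P1 of Bala was thus inside the range of the other cultivars and pool P2 above it, with a log2 difference of 4.14 (edgeR adjusted p = 0.0268). LOC9270637 (LOC_Os01g64120) was at 4.54, 4.03, 40.7 and 56.4 CPM, with 2.39 to 13.9 CPM in the other cultivars and a log2 difference of 3.50 between the pools (edgeR adjusted p = 0.0446).

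LOC4330409 had the greatest log2 difference, 7.05, and did not pass (edgeR adjusted p = 0.112), its difference resting on replicate 3. The ribosomal RNA share was also higher in pool P2 of Bala, and its part in these differences was not tested. The calls rest on 2 libraries a pool: DESeq2 called 5 members, and leaving out any Bala library ended both calls, while the log2 differences stayed between 3.56 and 4.56 for LOC4348283 and between 3.25 and 3.72 for LOC9270637. The call of LOC9270637 also ended without most single libraries of the other cultivars.

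To read genes in libraries that had not chosen them, the rule was applied to the 10 libraries of a pool. The genes it took were tested in the other pool. The 61 members were chosen from both pools, so only the lists of a single pool are free of the libraries they are read in. Pool P1 chose 48 genes, of which 36 are members. In pool P2, 45 of the 48 were higher in Bala than in the mean of the other cultivars, where 5.31% of all genes tested passed in that direction, and 25 met the rule again. Their median log2 difference in P2 was 4.96 against -0.01 over all genes. Among the 48 are 6 ribosomal RNA genes, which all passed (edgeR adjusted p from 0.0373 to 0.0408). They had nearly the same values and do not count as separate observations.

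Pool P2 chose 90 genes, of which 49 are members. In pool P1, 40 of the 90, or 44.4%, were higher in Bala, where 3.00% of all genes tested passed, and 59 reached an unadjusted p below 0.05. Again 25 met the rule, and their group of 90 had a median log2 difference of 2.01 against 0.01 over all genes. The 25 genes that both pools chose are all members, and 24 of them are separated genes. Their membership largely follows from the rule, which used the means over both pools, so nothing is read from it.

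**Figure D4:**
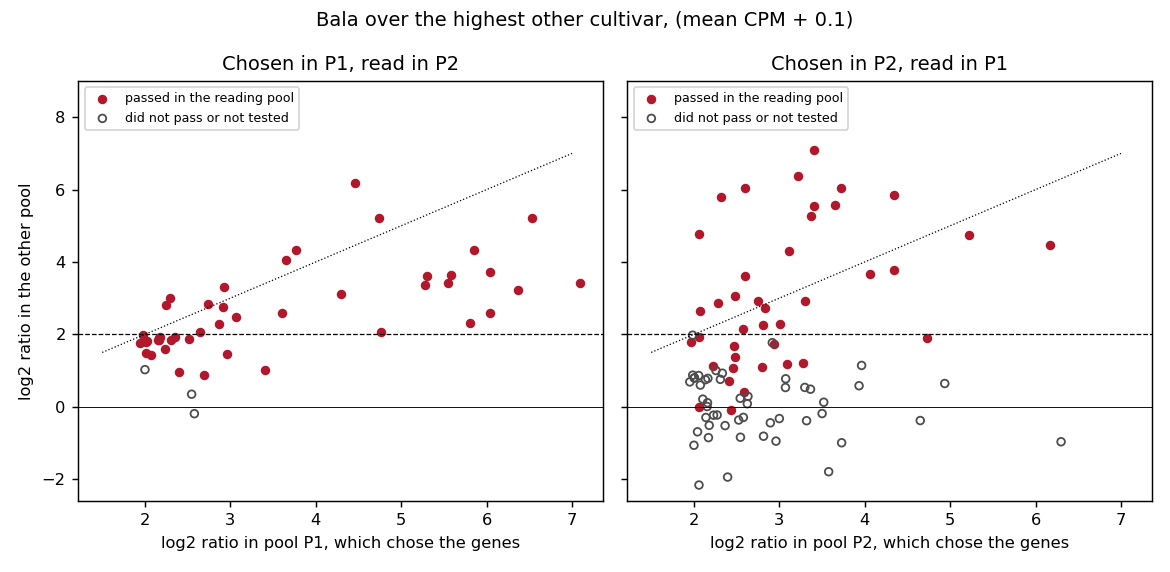
Each point is a gene chosen in the pool of the x axis and read in the pool of the y axis, as the log2 ratio of (mean CPM + 0.1) in Bala to that of the highest other cultivar. The dashed line marks the ratio of 4 and the dotted line equal ratios. Of the genes chosen in P1, 45 of 48 passed in P2 (filled points), against 40 of 90 in the other direction. The 45 include 6 ribosomal RNA genes with nearly the same values.

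Single libraries bear on these counts. With Bala represented in P2 by replicate 3 alone, 22 of the genes chosen in P1 passed, and with replicate 4 alone 30 passed, the lone library being assumed to vary like those of the other cultivars. The number chosen in P2 was 165 without Bala replicate 3 and 55 without replicate 4. With the ribosomal RNA share of each library as a covariate, 2 of 48 and 26 of 90 genes passed. In pool P2 the share was 75.0% and 84.6% in Bala and at most 62.2% in the other cultivars, so there share and cultivar cannot be told apart. No share over all genes is set beside the counts with the covariate or with a lone Bala library. Nothing is therefore read from their fall.

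The rule caps the other cultivars and does not order them, so whether their levels differ, in whatever order, was tested. Among Sarali, Niyan Wee, Moddai Karuppan and Azucena, 24 of the 61 genes differed by the F test of edgeR, or 39.3%, where 21.0% of all genes tested did. Without Azucena replicate 3 the count was 18, of which 15 were the same genes, where 20.6% of all genes passed. Counts thinned to an equal depth gave 14. The share over all genes at that depth is not given here, so whether an excess remains there is not read. Of the 24, 21 are separated genes and 3 overlapping. Only through Bala did 13 of the 61 genes pass the filter on low counts, and 8 of these were among the 24. Of the other 48, 16 were called, or 33.3%, against 20.9% of all genes that passed the filter without Bala, a filter chosen after the values were seen. Azucena had the next highest mean for 34 of the 61 genes, Sarali for 16, Niyan Wee for 8 and Moddai Karuppan for 2. Without Azucena replicate 3 these numbers were 26, 17, 12 and 5. The gene left over, LOC4330012, had no count outside Bala.

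The 5 genes with the smallest p passed under all 28 alternatives run. LOC107279807, a long non-coding RNA at 7.13, 6.85, 5.39 and 3.59 CPM in Bala, was at 0.660, 0.959, 2.17 and 0.969 CPM in Azucena replicates 1 to 4. In the Sri Lankan libraries it had 2 counts in all, both in Niyan Wee (edgeR adjusted p = 2.93e-06). It was thus present in Azucena at a lower level than in Bala and close to absent from the others. LOC107277321 (LOC_Os06g12940) had the same order, at 6.74, 7.16, 5.63 and 10.0 CPM in Bala and 0.484, 0.480, 1.57 and 0.865 CPM in Azucena, with at most 0.0802 CPM in a Sri Lankan library (edgeR adjusted p = 3.25e-06).

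LOC4341547 (LOC_Os06g41670) was at 11.0, 5.77, 5.47 and 5.39 CPM in Bala and 3.25, 0.690, 2.20 and 0.761 CPM in Azucena, with Sri Lankan means between 0.0957 and 0.149 CPM (edgeR adjusted p = 6.85e-05). LOC4337695 (LOC_Os05g03810) was at 9.01, 7.98, 9.75 and 22.3 CPM in Bala and 1.14, 1.65, 5.15 and 3.53 CPM in Azucena, but it was also found in Niyan Wee, at 0.742 to 1.41 CPM (edgeR adjusted p = 0.000137). Of its 20 deposited values 19 were not whole. LOC4325412 (LOC_Os01g72630) had another pattern. It was at 11.1, 13.3, 11.2 and 14.9 CPM in Bala and 1.79, 2.01, 3.62 and 2.43 CPM in Niyan Wee, with means of 0.423 CPM in Azucena, 0.163 CPM in Moddai Karuppan and 0.0778 CPM in Sarali (edgeR adjusted p = 0.000124).

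Azucena was then set against the mean of the 3 Sri Lankan cultivars. With all libraries, 20 of the 61 genes, or 32.8%, were higher in Azucena, where 12.8% of all genes tested were, and 3, or 4.92%, were lower, where 9.67% were. The median log2 difference of the 61 genes was 1.00 against 0.01 over all genes. Among the 61 are the 13 genes that passed the filter on low counts only through Bala. The shares of the 61 and of all genes are therefore not a like comparison. This count rests largely on Azucena replicate 3. Without it, 7 were higher, where 11.6% of all genes were, and 6 of the 7 were among the 20. The number lower became 5, where 8.72% of all genes were, and the median log2 difference fell to 0.57.

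The 6 genes higher in Azucena both ways were LOC107279807, LOC107277321, LOC4341547, LOC4337695, LOC4327212 and LOC9267818. LOC4327212 (LOC_Os01g14550) was at 9.40, 4.34, 30.8 and 20.0 CPM in Bala and 2.02, 0.690, 4.03 and 3.08 CPM in Azucena, with Sri Lankan means of 0.196 to 0.765 CPM. Its log2 difference between Azucena and the Sri Lankan mean was 2.50, and 2.14 without Azucena replicate 3 (edgeR adjusted p = 0.000162 and 0.00184). LOC9267818 (LOC_Os12g10340) had a log2 difference of 2.03, and 1.61 without that library (edgeR adjusted p = 0.000237 and 0.00369). LOC4345021 behaved otherwise: it was not different with all libraries, at a log2 difference of -0.30 (edgeR adjusted p = 0.524), and lower in Azucena without replicate 3, at -1.20 (edgeR adjusted p = 8.64e-05).

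Azucena replicate 3 was the highest of the 16 other libraries for 25 of the 61 genes and for 21 of the 34 separated ones. For LOC107279874, at 12.6, 18.5, 13.2 and 17.3 CPM in Bala, it had 2.71 CPM, while the other Azucena libraries had at most 0.0440 CPM and all Sri Lankan libraries together 1 count. LOC9266639 (LOC_Os07g01960), at 15.7, 17.8, 14.1 and 12.1 CPM in Bala, was at 2.65 CPM in that library and at most 0.220 CPM in the other Azucena libraries. For the 7 genes with at least 5 CPM in Bala and under 0.2 CPM in every other library apart from it, all of them members, Azucena replicate 3 stood at 0% to 17.6% of the Bala mean, with a median of 10.1%. For 5 genes with at least 5 CPM in each Sri Lankan cultivar and under 0.2 CPM in Bala and the other Azucena libraries, none of them members, it stood at 5.73% to 12.0% of the Sri Lankan mean. Both sets were defined after the values were seen. How reads of these genes came into that library was not tested.

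Some members lie side by side. Of 59 members placed in the gene order of the reference, 13, or 22.0%, had another member within 5 genes, and 10 of 55, or 18.2%, did so when ribosomal RNA genes were left out. The figure for the 198 placed genes that the same rule gives for Azucena was 23.2%. It was 2 of 11 for Sarali, 0 of 8 for Moddai Karuppan and 0 of 6 for Niyan Wee. These sets differ in size, which bears on such shares, so they are not a like comparison. The longest run of members was on chromosome 1, with LOC4326499 (LOC_Os01g24550), LOC4326500 (LOC_Os01g24560), LOC107280557 (LOC_Os01g24570) and LOC4326501 (LOC_Os01g24600). They were at 28.3, 46.7, 26.6 and 19.2 CPM in Bala replicate 4 and at most at 8.56 CPM in the other Bala libraries, so all 4 peaked in the same library. Their means over the other Bala libraries were 4.82, 7.39, 2.85 and 3.64 CPM, beside the limit of 5 CPM in the rule. The neighbour counts were not repeated without replicate 4. Between 10 and 13 of the 20 deposited values of each were not whole, and reads shared between them cannot be told apart. The genes on either side, LOC9266029 and LOC4326503, were at 0.770 and 38.7 CPM in Bala replicate 4 and at 3.70 to 4.60 CPM and 40.8 to 52.3 CPM in the other Bala libraries, so the peak did not extend to them.

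The pairs were steadier in Bala. On chromosome 6, LOC107275293 (LOC_Os06g16040) was at 16.1, 18.0, 15.7 and 19.1 CPM and its neighbour LOC4340728 at 27.9, 26.5, 31.6 and 27.1 CPM. Both were at 0 in Sarali and nearly so in Niyan Wee. In the other cultivars both were highest in the same libraries: LOC4340728 was at 0, 0, 5.91 and 3.66 CPM in Moddai Karuppan replicates 1 to 4 and at 0.572, 0.0600, 6.17 and 0 CPM in Azucena. LOC107275293 was at 0, 0, 1.98 and 1.06 CPM in Moddai Karuppan and at 1.06, 0, 8.28 and 0 CPM in Azucena. The measured gene just before the pair in the reference order, LOC107276101, showed the reverse, with means of 0.361 CPM in Bala and 0.173 CPM in Azucena against 5.84, 4.86 and 5.41 CPM in Moddai Karuppan, Niyan Wee and Sarali. LOC4340726 was likewise at 0.0750 CPM in Bala and 3.09 to 3.85 CPM in the Sri Lankan means.

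On chromosome 11, LOC4351030 (LOC_Os11g42880) was at 15.8, 21.8, 23.9 and 22.1 CPM in Bala and its neighbour LOC9267570 (LOC_Os11g42890) at 7.78, 10.3, 14.5 and 10.8 CPM. LOC4351030 was also found in Sarali, at a mean of 5.03 CPM, and LOC9267570 was at 0.648 CPM there. On chromosome 8, LOC9270413 stood 2 genes from LOC4344884 (LOC_Os08g09800), which was at 21.1, 14.0, 8.09 and 9.75 CPM in Bala and at most 3.43 CPM elsewhere, in Azucena replicate 3. Except for ribosomal RNA genes, no other members lay within 5 genes of each other. Members with an MSU identifier lay on every chromosome except chromosome 9, with 10 on chromosome 1 and 7 on chromosome 11.

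**Figure D5:**
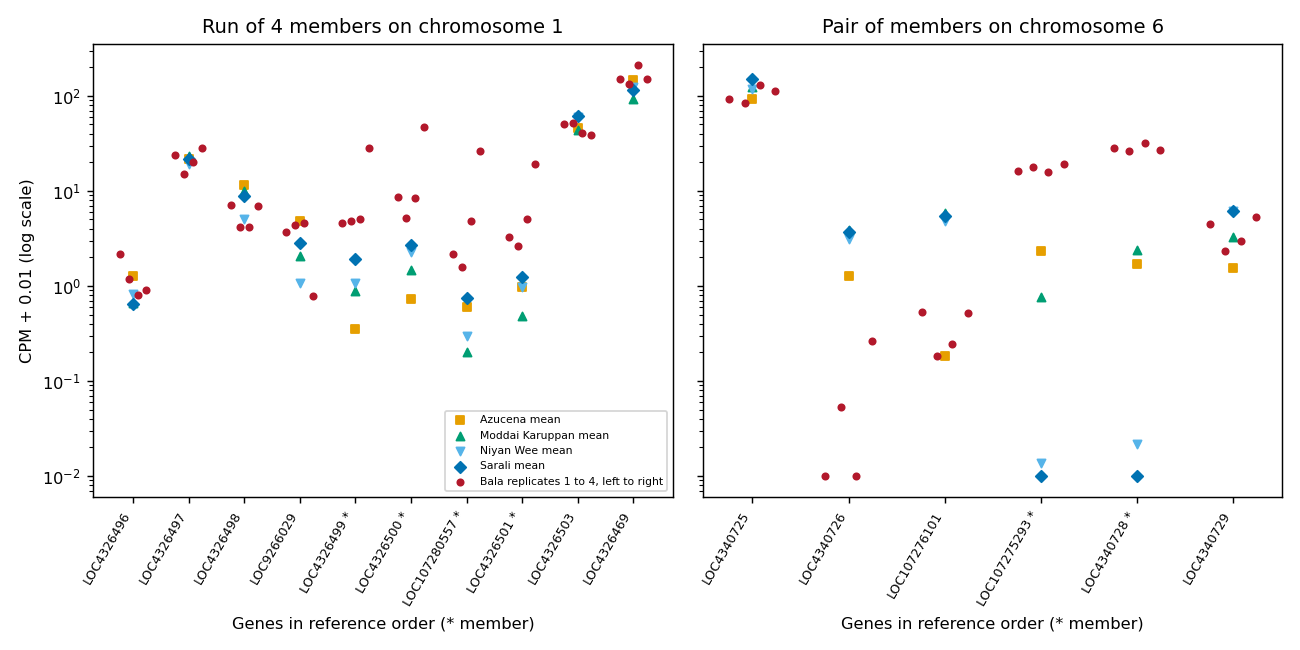
Levels of neighbouring genes in the order of the reference, as cultivar means (symbols) and single Bala libraries (red points, replicates 1 to 4 from left to right), in CPM plus 0.01 on a log scale. The 4 starred genes on chromosome 1 are highest in Bala replicate 4 (19.2 to 46.7 CPM), while the starred pair on chromosome 6 is level across the Bala libraries and 2 genes to its left are lower in Bala than in the Sri Lankan cultivars.

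Values that are not whole were more frequent among the members. At least 1 value that was not whole occurred in 26 of the 61 genes, or 42.6%, against 18.9% of all named genes. Of their values, 20.2% were not whole, or 14.6% without the ribosomal RNA genes, against 7.58% over the table. Lacking an MSU identifier were 13 of the 61, or 21.3%, against 10.5% of all named genes. What share of a member's reads belongs to a similar gene was not tested.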

How the data were processed

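Root RNA of 20 libraries went through a stranded total RNA kit with ribosomal RNA removal, per the labels' protocols. A molecule label says polyadenylated RNA instead. The submitters' processing notes list the build IRGSP-1.0, edgeR 3.36.0 and HISAT2 without a version. The tool that counted reads is not given in the sources used here. Values deposited by the authors are expected counts, of which 7.58% are not whole. They were rounded, and 2 rows that name no gene were left out. Where reads are shared between similar genes, such counts are estimates.

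CPM were computed with edgeR 4.0.16 (R 4.3.3) and TMM scaling. Tests were edgeR's quasi-likelihood F tests over 21225 genes (filterByExpr, minimum count 10, which removed 12), with Benjamini-Hochberg adjustment over all genes tested and a threshold of 0.05. Tests were the F test among 4 cultivars, Azucena against the Sri Lankan mean, the pools of Bala, Bala against the mean of the others, and genes chosen in a pool and read in the other. Each kind of test was run on simulated data with sets of 200 changed genes averaging at least 5 CPM. The reading across pools was simulated from P1 to P2 only. All genes were simulated with a common spread that was not taken from the members. How the tests behave for the most variable members is therefore not shown. Alternatives included DESeq2 1.42.0, other scalings, thinned counts and leaving out each library. The members and gene lists were chosen with earlier results of these data known, and the lists of chitinase, HKT and YSL genes were added after the members had been seen. Genes named in the text are the members with a gene name, the 10 with the highest ratio, the 10 with the highest Bala mean, 5 on either side of the limit, the 5 with the smallest p among the 4 cultivars and between the pools, and up to 4 other genes of a family with members. Genes beside members, genes with the widest or smallest spread, and those named for Azucena replicate 3 were picked after their values were seen. Names, biotypes and gene order came from the RefSeq table of assembly ASM3414082v1, to which 20839 rows matched, and no coordinates or sequences are used here. Whether same-numbered libraries pair was checked: the correlation of their deviations from the cultivar means lay between -0.416 and 0.504, with a median of 0.0575, so the numbers were not used as pairs.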

Additional observations from a re-analysis of the deposited data

Results flagged for a closer look

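In groups of 4 libraries, a single value can stand far from the rest. By Dixon's test at its 95% critical value, 67 of 280 groups (a member in a cultivar) held such a value, where chance flags about 1 in 20 groups of normally spread values. In 14 of the 67 the other libraries of the cultivar were all at 0, which brings the flag by itself, and the Bala values had chosen the members. In Bala, 10 of 61 members were concerned, 7 of them through replicate 4.

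The 4 neighbours on chromosome 1 stood apart in Bala replicate 4, with LOC4326499 at 28.3 CPM, LOC4326500 at 46.7 CPM, LOC107280557 at 26.6 CPM and LOC4326501 at 19.2 CPM. The same library was far above the other Bala libraries for LOC4332998 at 20.5 CPM, LOC4349327 at 24.9 CPM and LOC4337695 at 22.3 CPM. Bala replicate 3 stood apart for LOC4330409 at 1701 CPM and for LOC4351159 at 10.9 CPM, and Bala replicate 1 for LOC4341547 at 11.0 CPM. Azucena replicate 3 stood apart from the other Azucena libraries for many members, and only some are named here. Among them were LOC107280692 at 52.4 CPM, LOC4325764 at 42.7 CPM and LOC4350382 at 38.6 CPM. LOC107275293 at 8.28 CPM and LOC4340728 at 6.17 CPM were others. The flags in the Sri Lankan cultivars, several of them in Sarali replicate 2, are not listed.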

How the results depend on the processing

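The number of members depends on its thresholds and on the scaling. From 61 genes it went to 118 at a ratio of 3, 33 at a ratio of 6, 39 at a Bala mean of at least 10 CPM, and 11 with plain library totals in place of TMM. Plain totals moved the median log2 difference of all genes between Bala and the mean of the others from -0.05 to -1.11, and then 21 of the 34 separated genes still had no overlap and 9 of them met the rule, while all 61 members had their highest mean in Bala. With ribosomal RNA genes left out 80 genes met the rule, 56 of them members, and with medians in place of means 61 did, 47 of them members. Leaving out each library in turn gave 40 to 94 members. Without Bala replicates 3 and 4 there were 38, chosen after seeing the data.

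Among the other 4 cultivars, 14 members passed with thinned counts, and 17 to 23 with each library left out in turn. For Azucena against the Sri Lankan mean, thinned counts gave 1 member lower. No share over all genes is set beside these results with thinning. Leaving out Azucena replicate 3 and Bala replicate 4 together, also chosen after seeing the data, gave 12 members, 7 higher and 5 lower. With each library left out in turn there were 12 to 24 members, 7 to 21 higher and 1 to 5 lower. All genes passing numbered 3629 to 4572 and 3770 to 5080 in these 2 tests. Between the Bala pools DESeq2 called 5 members and 243 genes, and leaving out libraries gave 0 to 2 members and 0 to 16 genes. LOC9270637 lost its call in 16 of 25 alternatives and LOC4348283 in 4.

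Of genes chosen in P1, 2 passed in P2 once the share of ribosomal RNA was a covariate, and 22 to 50 with a library left out (39 to 55 chosen, 22 to 30 meeting the rule again). Of those chosen in P2, 26 passed with the covariate and 31 to 52 with a library left out (55 to 165 chosen, 22 to 30 meeting the rule again). With the replicate number as a block, 16 members passed among the other 4 cultivars and 21 between Azucena and the Sri Lankan mean (18 higher, 3 lower). Of the genes chosen in P1 and in P2, 45 and 40 passed with the block. No share over all genes is set beside these results. Of 20 libraries, 7 correlated best with a library of their own number. No block was possible between the Bala pools, since the numbers lie within pools. Of 1187 repeats for 43 values of single genes, 1142 stayed on their side of the threshold, 36 lost a call, 9 gained one and 0 changed sign with a call. Comparisons of protein and promoter sequences between members were not run. Depth limits the low levels: 3 counts are 0.385 CPM in Bala replicate 4 and 0.0464 CPM in Niyan Wee replicate 1.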
